A study of Homo sapiens with 8 samples.

Results

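Of the 10 genes described here, 9 encode selenoproteins, proteins that carry the amino acid selenocysteine, and the other gene, SECISBP2, encodes a factor that selenoprotein synthesis needs. The genes were taken by symbol from the deposited count files, which held 19964 genes with a coding transcript, and all 10 were found. They are SEP15, SELT, SELM, SELO, SELK, SEPW1, SEPN1, SEPHS2, SECISBP2 and GPX4, of which 7 now carry other symbols in RefSeq (SELENOF, SELENOT, SELENOM, SELENOO, SELENOK, SELENOW and SELENON in the order given). The rule for choosing them uses their symbols and no measured value, though earlier results of these data were known when the list was made. Each gene was represented by the coding transcript with the most coding-sequence (CDS) reads over both control ribo-seq libraries. That choice mattered for SEP15 and SEPN1, with 2 coding transcripts each, and for GPX4, with 3. Ties went to the transcript with more ribo-seq reads in all, and then by the order of RefSeq identifiers. The SEPN1 transcripts tied, with 29 and 215 control CDS reads each, and the identifier order settled it.

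The cells were HEK293T, an established human embryonic kidney line, given 40 µM sodium arsenite for 30 min or vehicle in place of it. Ribosome-protected fragments (ribo-seq) and fragments of polyadenylated RNA (mRNA-seq) were sequenced from the same lysates, with 2 biological replicates of each treatment, which gave 8 libraries. All of the cells were rinsed with cycloheximide at harvest, in control and arsenite alike. On the transcripts used, ribo-seq depth ran from 1023971 to 7270584 reads and mRNA-seq depth from 3990862 to 21704978 reads. Replicate 1 was the shallower in each group, and the study prepared and sequenced it in a different way from replicate 2. The 10 genes held 207 to 2884 ribo-seq reads per library, so counting error limits most of the ribo-seq values below. All 6 genes taken as markers of this kidney line had CDS ribo-seq reads in control. PAX2 and LHX1 had few, at 3 and 19 and at 2 and 8 reads (replicates 1 and 2). Of 8 markers of blood, liver and fibroblasts, 7 had none in any ribo-seq library. The exception was the collagen gene COL1A1, with 28 and 247 control reads, above PAX2 and LHX1.

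Selenocysteine is inserted at UGA, a codon that otherwise ends translation. The SECIS element, a stem-loop in the 3′ untranslated region (3′ UTR) of the mRNA, is bound by SECISBP2, and the elongation factor EEFSEC brings the selenocysteine tRNA to the ribosome. Where insertion fails, the ribosome stops at the UGA and makes a shortened protein. Many selenoproteins are oxidoreductases, and several of those listed here reside in the endoplasmic reticulum (ER). Arsenite is an oxidative agent that reacts with thiols and reduces translation initiation through phosphorylation of eIF2. A selenoprotein CDS in these files covers the transcript's full reading frame, so the counts do not separate reads before the selenocysteine codon from reads after it.

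In control cells, every one of the 9 genes with enough reads had a lower ratio of ribo-seq to mRNA-seq reads than the typical gene. Translation efficiency (TE) was taken here as a gene's share of CDS ribo-seq reads over its share of CDS mRNA-seq reads in the same replicate, a ratio in which gene length cancels. The median over 10262 genes was 0.770 in replicate 1 and 0.874 in replicate 2. The median of the 9 genes was 0.253 and 0.498. All 9 lay below the median of all genes in both replicates, as did 37.4% of all genes, and 7 of the 9 lay below the lower quartile of all genes in both, as did 16.0% of all genes. These counts are a description, with no test.

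GPX4, which reduces lipid hydroperoxides in membranes, and SEPHS2, which makes the selenium donor for selenocysteine and is itself a selenoprotein, stood lowest. Control TE was 0.167 ± 0.0173 (SD, n = 2) for GPX4 and 0.169 ± 0.0488 for SEPHS2. In replicate 1, 3.77% of genes were at or below GPX4 and 2.86% at or below SEPHS2. In replicate 2, the deeper of the pair, 1.75% of genes were at or below GPX4 and 2.51% at or below SEPHS2. These genes did not differ from each other beyond their spread. SECISBP2, the SECIS-binding protein, followed at 0.286 ± 0.00801, with SEPN1, an ER protein mutated in a congenital muscle disease, at 0.298 ± 0.0629. The distance between SECISBP2 and SEPN1 was also within the spread of the replicates.

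SELT and SELO could not be placed in that order with the same precision. SELT, an ER oxidoreductase, had a control TE of 0.0663 in replicate 1, from 4 CDS ribo-seq reads, and 0.498 in replicate 2, from 263 reads. SELO, a mitochondrial protein with a kinase-like fold, gave 0.187 and 0.505 from 9 and 161 reads. SELK, an ER membrane protein, stood at 0.454 ± 0.112, SELM, a thioredoxin-like ER protein, at 0.541 ± 0.0342, and SEP15, an ER partner of the glycoprotein-folding sensor, at 0.649 ± 0.0413. SEP15 was the nearest of the 9 to the typical gene, with 43.0% of genes at or below it in replicate 1 and 29.5% in replicate 2.

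SEPW1, a small thioredoxin-like selenoprotein, was almost without ribo-seq reads. Its CDS held 0 and 4 ribo-seq reads in the control libraries (replicates 1 and 2) and 2 and 2 in the arsenite libraries. Its transcript held 91 and 900 mRNA-seq reads in control against 99 and 854 in arsenite, of which 16 and 311 lay on the CDS in control. The 4 reads of control replicate 2 gave a TE of 0.0203. No rank is given, since the 10262 genes had passed a minimum of reads that SEPW1 did not reach. SEPW1 was under the minimum of 10 reads on average and was tested only for its mRNA level. Reads that matched more than 1 gene had been discarded from these counts, and what that removed from SEPW1 was not tested.

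Other genes of the pathway, taken from lists, were set beside these genes. Of 25 selenoprotein genes in the files, 17 had enough reads in both assays, and 12 of the 17 lay below the median of all genes in both control replicates. The 17 include the selenoproteins described above that had enough reads. Among the 9 that are not described above, 4 did so (44.4%), against 37.4% of all genes. GPX1, the abundant cytosolic glutathione peroxidase, had a control TE of 0.108 ± 0.0728, and C11orf31, which is SELENOH, a nucleolar selenoprotein, had 0.157 ± 0.0140. EPT1, which is SELENOI, a phospholipid-synthesis enzyme, stood at the other end with 2.16 ± 0.914, and MSRB1, a methionine sulfoxide reductase, had 1.28 ± 0.188. Of the other genes of the selenocysteine machinery, 5 of 12 (41.7%) were below the median in both replicates, also near the share of all genes. Of relatives of selenoproteins that carry cysteine or no selenocysteine, 5 of 7 (71.4%) were, with MIEN1, a homolog of SEPW1, at 0.250 ± 0.00934. SEPHS1, at 0.337 in replicate 1 and 0.615 in replicate 2, counts in both the machinery and the relatives. TE below the median was thus found in genes with and without a selenocysteine codon.

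**Figure D1:**
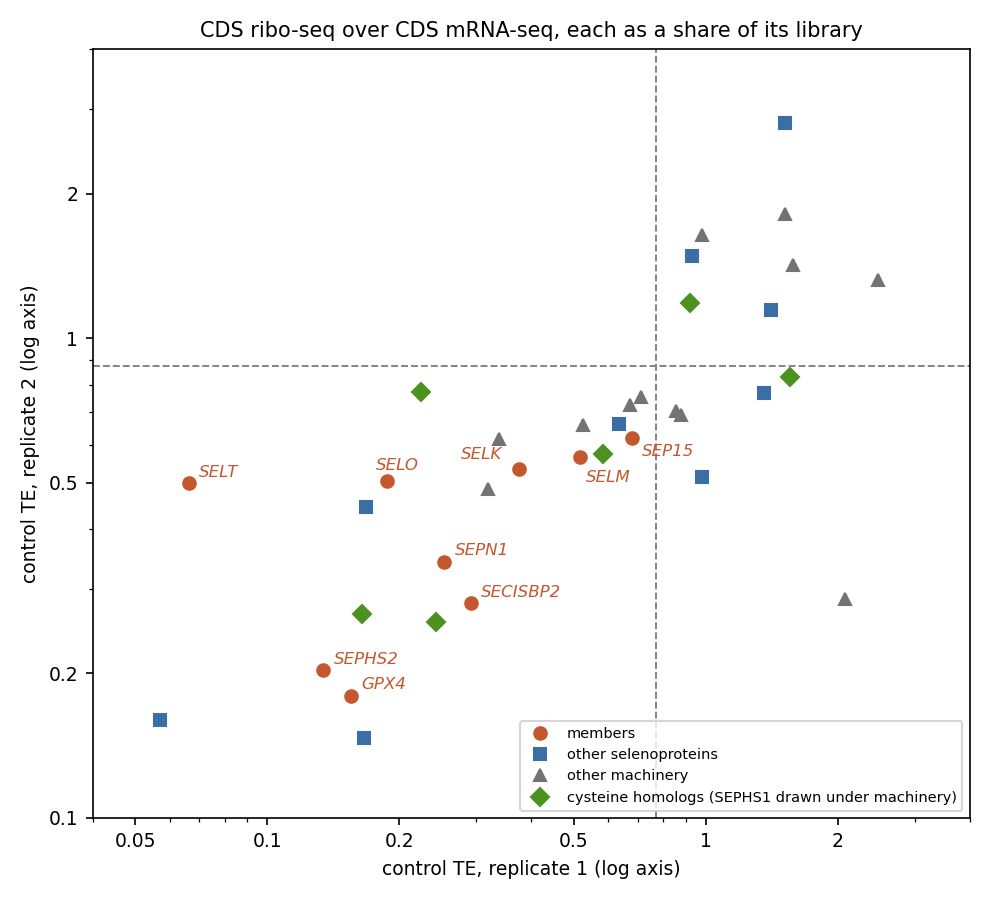
Control translation efficiency in replicate 1 (x axis) against replicate 2 (y axis), both log axes with no unit, for the genes of each list that had enough reads; dashed lines mark the medians of all genes, 0.770 and 0.874. All 9 genes described here sit in the lower left field, GPX4 and SEPHS2 lowest among them in replicate 2, while other selenoproteins are spread over the plot.

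The same ratio in the arsenite libraries placed 6 of the 9 genes below the median of all genes in both replicates, as were 36.2% of all genes. GPX4 had ratios of 0.108 and 0.171, SEPHS2 of 0.104 and 0.262 and SECISBP2 of 0.228 and 0.199, each with at most 9.13% of genes at or below it. SEP15, SELM and SELK were above the median in 1 replicate each, SELK in replicate 2 with 1.53 and SEP15 in replicate 2 with 0.904, and SELM in replicate 1 with 0.891.

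The mRNA levels of the 10 genes moved little in the 30 min with arsenite. The test was edgeR's quasi-likelihood test with the replicate as a block and Benjamini-Hochberg adjustment over all genes, and a change was called at an adjusted p under 0.05. Scaling set the bulk of mRNAs to no change, so each value is relative to that bulk, and the general fall in translation is not part of it. Of the 10 genes, 1 was called, with 5.83% of 12576 genes called in all. The fitted log2 changes ran from -0.23 to 0.01 with a median of -0.11, and 9 of the 10 were below 0, against a median of -0.01 for all genes. In replicate 1 the median of the 10 was 0.01 and in replicate 2 it was -0.15, and 5 of the 10 had the same sign in both.

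GPX4 mRNA fell. Its transcript had 209 and 246 CPM (mRNA-seq counts scaled to a common library size) in control (replicates 1 and 2) against 174 and 213 in arsenite. The arsenite value was the lower in each replicate, though the groups overlapped, since arsenite in replicate 2 was above control in replicate 1. The log2 change was -0.23 (SE 0.0531, adjusted p = 0.00133, edgeR), with -0.27 in replicate 1 and -0.21 in replicate 2. DESeq2 gave -0.23 with an adjusted p of 0.284, and without the replicate block the adjusted p was 1. In bulk RNA of this cell line, a small fall in all cells and a larger fall in some of them cannot be told apart.

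SEPW1 and SELT had the next lowest mRNA values, with log2 changes of -0.18 (SE 0.0820, adjusted p = 0.181, edgeR) and -0.13 (SE 0.0587, adjusted p = 0.172). SEPW1 had 23.3 and 45.2 CPM in control against 25.4 and 38.4 in arsenite, so its replicates went in opposite directions. For SECISBP2 the change was -0.12, for SELM -0.12 and for SEPHS2 -0.10. SEPN1, SELK and SEP15 had changes of -0.08, -0.07 and -0.07, and SELO, at 0.01, was the gene above 0. None of these passed the test.

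**Figure D2:**
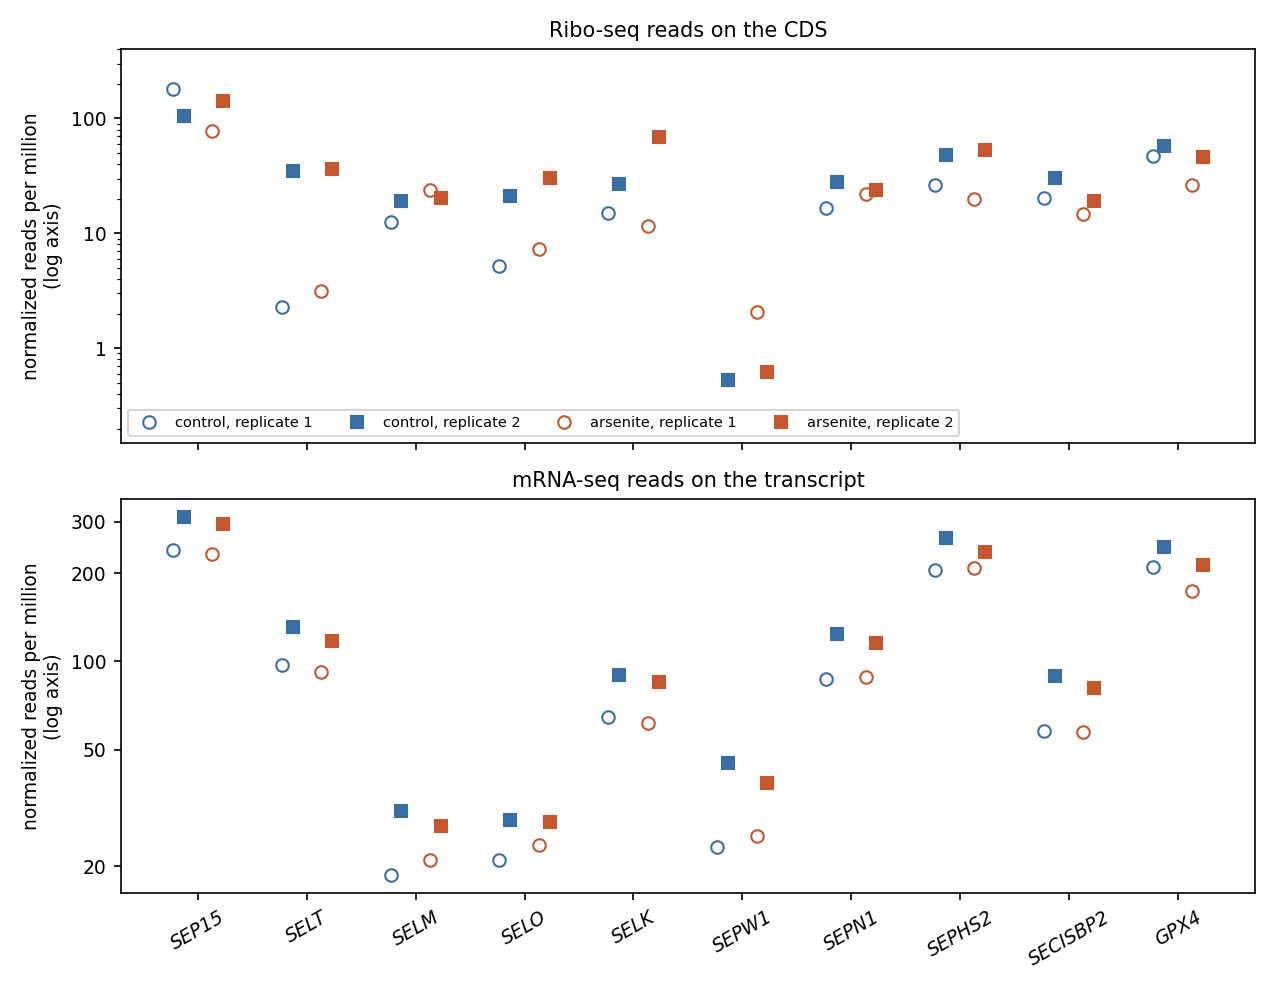
Normalized CPM (y axes, log scale) of the 10 genes in each library, with CDS ribo-seq reads above and mRNA-seq reads over the transcript below; open circles are replicate 1 and filled squares replicate 2, blue for control and red for arsenite. In ribo-seq the replicates of SELT and SELO lie further apart than control and arsenite do, the SELK arsenite value of replicate 2 is above its other libraries, and the control value of SEPW1 in replicate 1 was 0 and is not drawn.

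Ribosome occupancy, the CDS ribo-seq reads, was called changed in 0 of the 9 genes tested by edgeR, with 1.78% of 10290 genes called in all. At an unadjusted p under 0.05 there were 3 of the 9 (SELK, SECISBP2 and GPX4) and 17.3% of all genes, and DESeq2 called none of those it gave an adjusted p. The median log2 change was -0.02, equal to the -0.02 of all genes. Occupancy and TE changes are also relative to the bulk of genes, so a value above 0 can still be an absolute fall. The TE change set CDS ribo-seq reads against mRNA-seq reads over the whole transcript, unlike the ratios above, which used CDS reads in both assays. TE by this measure was called in 0 of the 9 by edgeR, with 2.06% of 10272 genes called. At an unadjusted p under 0.05 there were again 3 of the 9 (SELK, SECISBP2 and SELO), with 21.2% of all genes, and DESeq2 again called none. The TE changes ran from -0.52 to 1.23 with a median of 0.11, against -0.02 for all genes. The median was -0.31 in replicate 1 and 0.26 in replicate 2. Both replicates gave the same sign in 5 of the 9 genes and in 62.3% of all genes.

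SELK, which takes part in ER-associated protein degradation and in protein palmitoylation, had the highest TE value. It had 26 and 206 CDS ribo-seq reads in the control libraries against 11 and 226 in the arsenite libraries. These were 14.96 and 27.1 CPM in control against 11.5 and 69.5 in arsenite. The arsenite library of replicate 2 was above the other 3, and that of replicate 1 was the lowest. The mRNA held at 64.4 and 89.8 CPM in control against 61.6 and 85.3 in arsenite. The log2 TE change was 1.23 (SE 0.266, adjusted p = 0.0501, edgeR), higher than or equal to that of 99.4% of genes, and just outside the threshold. The TE model fitted 1 spread per gene over ribo-seq and mRNA-seq together, so its standard error does not measure the ribo-seq spread by itself. For SELK it was below the 0.318 of the occupancy change alone. With no filter on low counts the adjusted p was 0.0227, and with DESeq2 it was 0.432 for a change of 0.89. It was -0.31 in replicate 1 and 1.43 in replicate 2, a difference between replicates that was at least as large as in 95.9% of genes. Counting error alone gave the occupancy change a 95% interval of -1.55 to 0.68 in replicate 1 and 1.08 to 1.64 in replicate 2, and these do not overlap.

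SEP15 showed a difference between replicates of the same kind. It had 311 and 799 CDS ribo-seq reads in control against 74 and 461 in arsenite, or 179 and 105 CPM against 77.2 and 142. Replicate 1 had the lower value in arsenite and replicate 2 the higher. The TE change was -0.12 (SE 0.368, adjusted p = 0.879, edgeR), with -1.16 in replicate 1 and 0.51 in replicate 2. The 95% counting intervals of its occupancy change were -1.60 to -0.84 and 0.27 to 0.60, both away from 0 and on opposite sides of it. The fitted value near 0 lay between replicates with opposite changes and was not their plain mean.

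The genes whose replicates went the same way in TE were SELT, SELM and SELO, with values above 0, and SECISBP2 and GPX4, with values below 0. SELO had 9 and 161 CDS ribo-seq reads in control against 7 and 98 in arsenite, and in CPM 5.18 and 21.2 against 7.31 and 30.2. Its TE change was 0.49 (SE 0.213, adjusted p = 0.226, edgeR), with 0.31 and 0.53 in the replicates. SELM had 22 and 145 reads in control against 23 and 66 in arsenite, and a TE change of 0.37 (SE 0.264, adjusted p = 0.442). SELT had 4 and 263 reads in control against 3 and 118 in arsenite, and a TE change of 0.21 (SE 0.196, adjusted p = 0.582).

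SELT and SELO also differed between the control replicates themselves. With 0.5 reads added to each count, SELT was 13.4-fold higher in control replicate 2 than in control replicate 1 per normalized library, a ratio at or above that of 99.7% of genes, and SELO was 3.88-fold higher, at or above 97.3% of genes. Their mRNA-seq levels differed less, by 0.43 and 0.45 on the log2 scale. The arsenite libraries of the same replicates showed the same gap, 3.13 and 36.3 CPM for SELT, so the change within a replicate was small beside the gap between replicates.

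SECISBP2 had 35 and 229 CDS ribo-seq reads in control against 14 and 62 in arsenite, or 20.1 and 30.1 CPM against 14.6 and 19.1. Both arsenite values were below both control values. The log2 TE change was -0.52 (SE 0.204, adjusted p = 0.187, edgeR), with -0.45 and -0.51 in the replicates. The fitted value was the lowest of the 9, while SEP15 and GPX4 were lower in replicate 1. GPX4 had 82 and 442 reads in control against 25 and 149 in arsenite, or 47.2 and 58.1 CPM against 26.1 and 45.9, again with no overlap. Its occupancy change was -0.52 (SE 0.234, adjusted p = 0.267, edgeR) and its TE change -0.24 (SE 0.191, adjusted p = 0.502), with -0.58 and -0.14 in the replicates. Neither gene passed the test, in which 1.78% of all genes did for occupancy and 2.06% for TE.

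SEPHS2 and SEPN1 had values near 0, the level of the bulk of genes. SEPHS2 had 46 and 363 CDS ribo-seq reads in control against 19 and 172 in arsenite, and a TE change of 0.11 (SE 0.202, adjusted p = 0.784, edgeR), with -0.44 in replicate 1 and 0.31 in replicate 2. SEPN1 had 29 and 215 reads in control against 21 and 78 in arsenite, and a TE change of -0.05 (SE 0.218, adjusted p = 0.927), with 0.37 in replicate 1 and -0.13 in replicate 2. Changes well above these standard errors also went uncalled, as with SECISBP2 at -0.52 and a standard error of 0.204.

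**Figure D3:**
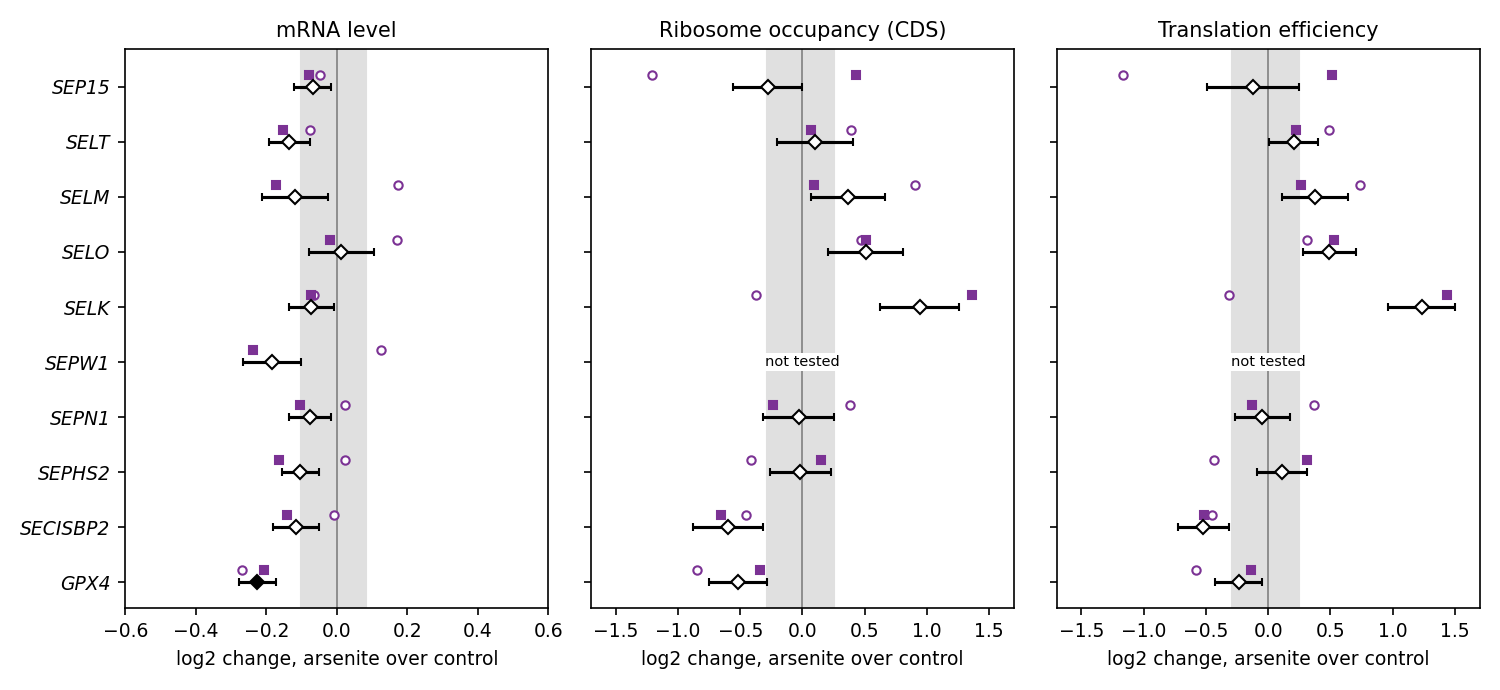
Log2 change, arsenite over control (x axes; the left panel has a narrower range), in mRNA level, CDS ribosome occupancy and translation efficiency for each of the 10 genes. Diamonds are fitted values with standard errors, filled where the adjusted p was under 0.05, purple circles and squares are replicates 1 and 2, and grey bands span the interquartile range of all genes. Only GPX4 mRNA is filled, and SELK and SEP15 show the widest gaps between replicates in occupancy and TE.

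Across the lists of related genes, no gene was called in occupancy or TE by edgeR. The 17 selenoprotein genes tested had a median TE change of 0.11, 11 of them above 0, with 9 of the same sign in both replicates. GPX1 had 0.55 (SE 0.214, adjusted p = 0.184) and VIMP, which is SELENOS, an ER-associated degradation factor, had -0.43 (SE 0.162, adjusted p = 0.177). The other 12 genes of the machinery had a median of -0.06, and the 7 cysteine homologs and relatives a median of -0.31. SEPHS1 counts in both groups. Among the relatives, CHPT1, a cholinephosphotransferase, had -0.77 (SE 0.201, adjusted p = 0.0752). In mRNA level, 10 other selenoprotein genes, 13 machinery genes and 7 cysteine homologs and relatives were tested. Of these, 3 were called by edgeR, with 5.83% of all genes called. GPX1 mRNA fell by 0.21 on the log2 scale (SE 0.0525, adjusted p = 0.00231), MIEN1 mRNA fell by 0.34 (SE 0.0803, adjusted p = 0.00118), and the mRNA of NCL, or nucleolin, an RNA-binding protein of the nucleolus that also binds SECIS elements, rose by 0.21 (SE 0.0486, adjusted p = 0.00113). All 3 calls were lost without the replicate block, and DESeq2 gave GPX1 an adjusted p of 0.391, NCL 0.0113 and MIEN1 none. Of the 19 selenoprotein genes tested for mRNA level, GPX4 and GPX1 were called, both lower, where 5.83% of all genes were called and 2.11% were called lower.

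Outside the CDS, the 10 genes had few ribo-seq reads. Their leaders, the 5′ regions before the start codon, held 10 and 41 reads in control against 7 and 46 in arsenite. These were 1.74% (95% Wilson interval 0.946 to 3.17) and 1.42% (1.05 to 1.92) of the genes' ribo-seq reads in control, and 3.38% (1.65 to 6.81) and 3.07% (2.31 to 4.07) in arsenite. Over all genes the leader share was 0.399% and 0.800% in control against 0.495% and 1.52% in arsenite. The arsenite share was thus the higher in both replicates, for the 10 genes and for all genes. Intervals here cover the counting error of each library only, and not the spread between libraries. The reads carried no molecular identifiers, so copies of the same fragment may be counted more than once.

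Most leader reads lay on SEPHS2. Its leader held 6 and 20 ribo-seq reads in control against 4 and 34 in arsenite, or 11.5% and 5.21% of the transcript's ribo-seq reads against 17.4% and 16.3%. Leader reads relative to CDS reads changed by 1.52 on the log2 scale (SE 0.769, adjusted p = 0.501, edgeR), with 0.66 in replicate 1 and 1.81 in replicate 2. With each region scaled to its own total the change was 0.80 (adjusted p = 0.999). SEP15, with 4 and 14 leader reads in control against 3 and 10 in arsenite, had a change of 0.67 (SE 0.846, adjusted p = 0.774). These were the members with enough leader reads for the test, and 0 of the 2 were called, with 0.0396% of 2524 genes called in all, while SEPHS2 alone had an unadjusted p under 0.05, as did 9.9% of all genes. The median over all genes tested was 0.85. The 5 leader reads of SEPW1 in control replicate 2 outnumbered its 4 CDS reads there.

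In the 3′ UTR, where the SECIS element lies, ribo-seq reads were fewer still. The 10 genes held 2 and 16 such reads in control against 1 and 21 in arsenite, which were 0.347% (95% Wilson interval 0.0953 to 1.26) and 0.555% (0.342 to 0.899) of their ribo-seq reads in control and 0.483% (0.0853 to 2.69) and 1.40% (0.918 to 2.13) in arsenite. Over all genes the shares were 0.102% and 0.204% in control against 0.2005% and 0.754% in arsenite. The intervals of the 10 genes overlapped between control and arsenite in replicate 1 and did not in replicate 2, but they cover the counting error of 1 library per group and not the spread between libraries, and SEP15 held 7 of the 16 and 8 of the 21 reads of replicate 2. SEP15 was the gene with enough 3′ UTR reads for the test, 2 and 7 in control against 0 and 8 in arsenite. Its 3′ UTR to CDS ratio changed by 0.60 on the log2 scale (SE 1.36, adjusted p = 0.739, edgeR), with -0.83 in replicate 1 and 0.90 in replicate 2. This gene was not called, with 17.7% of 739 genes called, all higher, and a median of 2.06 over those genes. Against each region's own total, 1 gene of the 739 was called higher and the SEP15 value was -1.10. Among the other genes, GPX4 had 0 and 5 3′ UTR reads in control against 0 and 3 in arsenite, SEPN1 had 0 and 1 against 0 and 4, and no library held over 2 for any of the rest. SELM, SELO and SECISBP2 had 0 in every ribo-seq library.

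**Figure D4:**
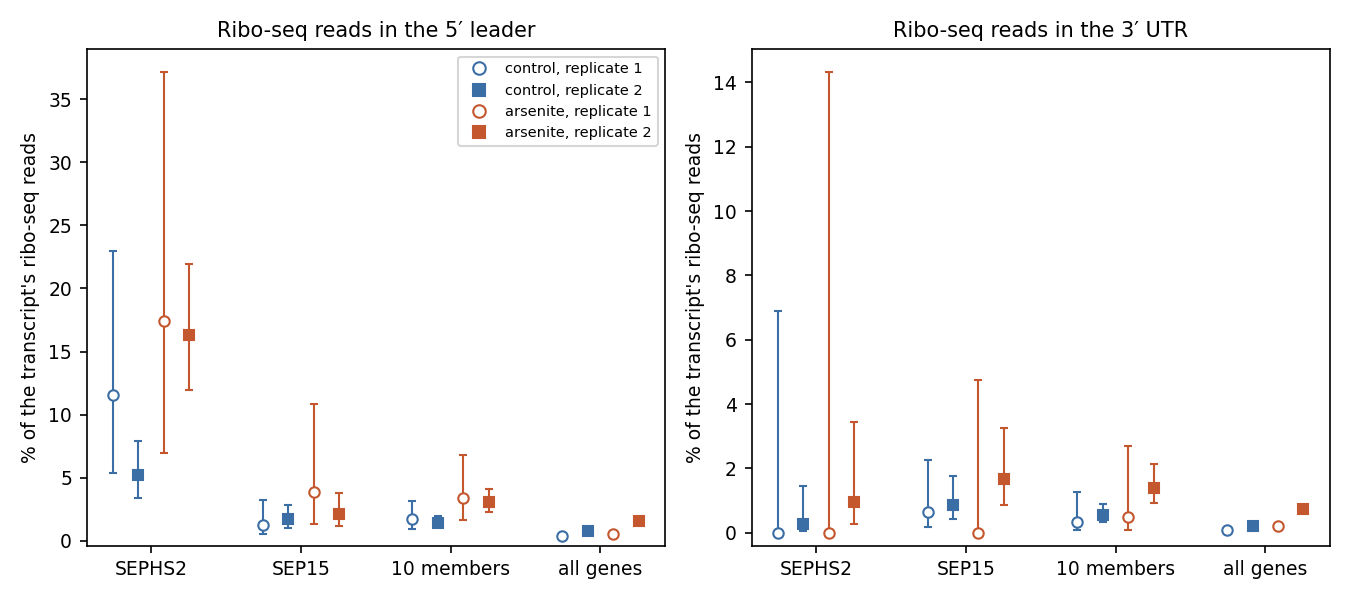
Share of ribo-seq reads in the 5′ leader (left) and the 3′ UTR (right), as a percent of reads on the transcript (y axes), for SEPHS2, SEP15, the 10 genes summed and all genes; open circles are replicate 1 and filled squares replicate 2, blue for control and red for arsenite. Bars are 95% Wilson intervals, not drawn for all genes, and the SEPHS2 leader shares of 16.3% and 17.4% in arsenite stand above its control shares of 5.21% and 11.5% with overlapping intervals in replicate 1.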

How the data were processed

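The deposited values are raw read counts per RefSeq transcript, split into leader, CDS and 3′ UTR. Per the labels and methods, the authors trimmed adapters with Cutadapt, aligned reads to RefSeq transcripts with Bowtie 1.0.0, discarded reads matching more than 1 gene or matching repeatedly, and assigned ribo-seq reads to the inferred A-site. Runs of replicate 2 were added together. The files list 47087 transcripts, 35851 of them coding.

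The members and gene lists were chosen with earlier results of these data known. The genes named are the members and the genes of the fixed lists. Genes averaging 10 counts or more (in each assay for TE) were tested with edgeR 4.0.16 in R 4.3.3, with TMM scaling within an assay and Benjamini-Hochberg adjustment. The TE test was the assay by treatment term over 8 libraries, on CDS ribo-seq and whole-transcript mRNA-seq counts. It fitted 1 spread per gene over both assays. Region shifts compared region and CDS reads within ribo-seq libraries, for genes with at least 10 reads in the region and 10 in the CDS. Standard errors came from the log2 change and its F value. Values of each replicate used a prior count of 0.5. Replicate numbers paired the libraries in a block: deviations of same-numbered control and arsenite libraries from their group means correlated at 0.69 in ribo-seq (10290 genes) and 0.71 in mRNA-seq (12576 genes). With 2 replicates these deviations mirror each other, so this is 1 value per assay. Alternatives were DESeq2 1.42.0, other scaling, filters, transcripts and regions. Current symbols were matched by RefSeq accession for all 10 genes. Sequences were not used here.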

Additional observations from a re-analysis of the deposited data

How the results depend on the processing

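The fit without the replicate block called 0 genes higher and 0 lower in RNA level, occupancy, TE and both region shifts, so the GPX4 mRNA call was lost with the rest. Over all genes, DESeq2 called 80 higher and 6 lower in RNA level (0 members), 29 and 25 in occupancy, and 45 and 50 in TE. Upper-quartile scaling called 284 and 299 in occupancy and left RNA level and TE within 1.5 times. With no filter on low counts, 249 and 294 were called in occupancy and 193 and 230 in TE. CDS reads in mRNA-seq gave 247 and 103 in RNA level and 42 and 50 in TE. Ribo-seq reads over the transcript gave 221 and 240 in occupancy and 59 higher in TE. In the 3′ UTR shift 1 gene was called higher with each region scaled to its own total and 38 of 93 with at least 40 region reads, and 1 lower on the transcript with most mRNA-seq reads. In the leader shift 2 of 651 were called higher with at least 40 region reads.

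The count of members called changed only through GPX4 and SELK. SELK was the 1 member called in occupancy with upper-quartile scaling (adjusted p = 0.0196), with no filter (0.0198) and with ribo-seq reads over the transcript (0.0449), against 0.139 in the report and up to 1.00 without the block. It was the 1 member called in TE with no filter (0.0227), where the other alternatives gave 0.0511 to 1. GPX4 mRNA kept its call with adjusted p of 0.00128 to 0.00474 under the other scaling, filter, transcript and region, and lost it with DESeq2 and without the block. Of the list genes called, GPX1 lost its mRNA call with DESeq2 (0.391) and without the block, and NCL and MIEN1 lost theirs without the block, while DESeq2 gave MIEN1 no adjusted p.

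Several directions turned. SELO mRNA was -0.0027 on CDS reads. SEPN1 occupancy was 0.0141 without the block, 0.0569 with DESeq2 and 0.0034 on the transcript with most mRNA-seq reads, and its TE was 0.0552 without the block and 0.0260 with DESeq2. SEPHS2 occupancy was 0.1066 over the transcript. With regions scaled to their own totals, SEP15 had -1.0995 in the 3′ UTR shift, from 0.6034, and -0.0671 in the leader shift, from 0.6702, and the SEPHS2 leader shift was 0.8027, from 1.5204. The cause was not tested.

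Leaving out replicate 1 or 2 leaves 1 pair of libraries, values only and no test. Log2 changes then ran from -0.1712 to 0.1724 for SELM mRNA, -0.0203 to 0.1708 for SELO, -0.2375 to 0.1267 for SEPW1, -0.1043 to 0.0225 for SEPN1 and -0.1625 to 0.0219 for SEPHS2. In occupancy they ran from -1.2088 to 0.4340 for SEP15, -0.3719 to 1.3585 for SELK, -0.2342 to 0.3854 for SEPN1 and -0.4104 to 0.1499 for SEPHS2. In TE they ran from -1.1632 to 0.5131 for SEP15, -0.3125 to 1.4345 for SELK, -0.1304 to 0.3665 for SEPN1 and -0.4355 to 0.3126 for SEPHS2, and from -0.8279 to 0.9017 for the SEP15 3′ UTR shift. Depth was lowest in replicate 1, where SELT had 4 and SELO 9 control reads on the CDS, but these genes were also lower there after scaling to depth, at 2.30 against 34.6 CPM and 5.18 against 21.2 CPM.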

Other observations

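SEP15 has a second coding transcript in the files with a shorter coding region. On it, 31 and 19 ribo-seq reads fell in the 3′ UTR in control against 2 and 11 in arsenite, against 2 and 7 and 0 and 8 on the transcript used. On its CDS were 281 and 780 reads in control against 71 and 457 in arsenite, against 311 and 799 and 74 and 461. The 3′ UTR reads of SEP15 therefore depend on which annotated stop codon is taken, most of all in control replicate 1. The 3 coding transcripts of GPX4 differed by at most 16 CDS reads in any ribo-seq library, and those of SEPN1 by at most 3.

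On the mRNA-seq side, the pooled 3′ UTR share of the 10 genes' reads was 32.9% and 46.1% in control and 33.3% and 46.1% in arsenite, against 26.8% and 36.5% and 26.2% and 36.4% over the pooled reads of all genes. The pooled share was not that of each gene: SEP15 had 26.5% and 64.6% in control, while GPX4 had 5.98% and 20.2%, SELM 10.96% and 26.7%, SELO 14.6% and 11.7% and SECISBP2 21.7% and 26.5%, these 4 all below the share of all genes in the same library. The pooled shares of replicate 2 were above those of replicate 1 in both treatments.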
